A study of Mus musculus with 12 samples.

Results

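Oxidative phosphorylation in mitochondria is carried out by 5 protein complexes, and most of their subunits are encoded in the nucleus. H4K12ac around the transcription start sites (TSSs) of these genes was examined in hippocampal neurons with and without TIP60, the histone acetyltransferase encoded by *Kat5*. The genes were chosen by symbol: all autosomal protein-coding genes of the GENCODE M21 annotation on GRCm38 whose names begin with Nduf followed by a, b, c, s or v, with Uqcr, with Cox and a digit from 4 to 8, or with Atp5, and the genes *Sdha* to *Sdhd*. This rule gave 91 gene records (90 symbols, as *Atp5o* is annotated as a pair of overlapping records) of 55413 annotated genes. They comprised 36 records of complex I, 4 of complex II, 8 of complex III, 17 of complex IV and 18 of complex V. The remaining 8 records, named Ndufaf, encode assembly factors of complex I and no subunits, and they are described as a group of their own. *Ndufa4*, whose protein is now counted with complex IV, stayed with complex I by its name. The rule also took *Ndufa4l2* and *Atp5s*, which were placed by name alone with complex I and complex V. The X-linked genes *Ndufa1*, *Ndufb11* and *Cox7b*, 3 in number, fell outside the rule.

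Nuclei of neurons were sorted by FACS from whole hippocampus and used for H4K12ac ChIP-Seq, with 5 libraries of *Tip60* cKO mice and 5 of control mice. *Tip60* cKO mice carried the tamoxifen-inducible CaMKCreERT2 driver, which acts in excitatory forebrain neurons, together with floxed alleles of *Tip60* in homozygous form. Control mice were littermates with the same floxed alleles but no driver, and both genotypes received tamoxifen. The timeline of the study places the experiment at day 10 after the last injection, and the labels give an age of 3 months, male mice and the strain C57BL/6J, whereas the methods of the study name both sexes and C57BL/6N. Interneurons and other neurons without the driver keep *Tip60* but pass the sort, and a lower level in all nuclei cannot be told apart from a loss in a share of them. The sources used here do not state that each library came from 1 animal, so p-values measure the spread between these libraries. Peaks were called against 1 input pooled for each genotype. A difference between the inputs cannot be told apart from genotype, and the p-values do not measure it.

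Complex I (NADH dehydrogenase), complex II (succinate dehydrogenase), complex III (cytochrome bc1) and complex IV (cytochrome c oxidase) pass electrons from nutrients to oxygen and, complex II excepted, pump protons, and complex V (ATP synthase) uses the proton gradient to make ATP. Neurons depend on this pathway for most of their ATP. Its nuclear genes are active in nearly all cells, often have CpG-rich promoters, and are known targets of the transcription factors NRF1, GABP (of the ETS family) and YY1. Several complex IV subunits have paralogs that are used mainly in muscle, lung or testis. Acetylation of histone H4 at lysine 12 is a mark of active promoters, and TIP60 is one of the enzymes that place it.

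The libraries entered peak calling with 22864189 to 37923809 tags and gave 64245 to 136409 peaks each, with the fewest tags and the shortest list in *Tip60* cKO library 5. Replicates 1 to 3 of each genotype were run on lane 7 and replicates 4 and 5 on lane 8. *Kat5* itself had a peak at its TSS in every list, at rank scores (defined in the next paragraph) from 86.0 to 98.6 in *Tip60* cKO libraries and from 94 to 99.4 in controls, and peak lists do not measure the recombination of the gene. Neuronal markers (*Rbfox3*, *Snap25*, *Syt1*, *Stmn2*) had a TSS peak in all 10 lists, as did 3 of 4 markers of hippocampal excitatory neurons. The 3 interneuron markers had a peak in at most 2 lists. Of 15 glial and endothelial markers 9 had no peak in any list, but *Mbp* of oligodendrocytes had one in all lists and *Gfap* of astrocytes in 9.

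3 measures of H4K12ac were used for each TSS in each library. The rank score is the percentile of the strongest peak within 2 kb of the TSS, by fold enrichment over input, among all annotated genes of the same library, and it is 0 without a peak. TSS coverage gives how much of the 4 kb window was taken up by peaks, in percent. Relative fold enrichment is the log2 ratio of the strongest peak to the median of its library, and it exists only for the 13004 genes with a peak in all 10 lists.

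Motifs of NRF1, ETS/GABP and YY1 were each present in a minority of the promoters of these genes. RefSeq promoters on GRCm38.p6 (250 bases before to 50 after the start) were matched to 69 of the 91 records, and 6 motifs were searched on both strands. The NRF1 motif (GCGC, any base, TGCGC) was present in 18 of the 69 promoters (26.1%) against 7.6% of 13957 autosomal protein-coding promoters, 8.77% of 57 promoters of cytosolic ribosomal protein genes and 21.9% of 32 promoters of proteasome genes. The ETS/GABP motif CCGGAAG was found in 24.6% of the members against 13.5% of all promoters, but in 42.1% of ribosomal and 37.5% of proteasome promoters. The YY1 motif AAGATGGC was found in 13.0% against 3.4% of all, 8.77% of ribosomal and 9.38% of proteasome promoters. Of the 69 promoters 31 held an NRF1 or ETS/GABP match and 4 held both. The CCAAT box (CCAAT, bound by NFY) was present in 44.9% against 38.4%, the SP/KLF motif GGGCGG in 44.9% against 51.8% and the TATA box (TATAAA) in 10.1% against 11.6%. The ratio of observed to expected CpG had a median of 0.829 in the members, 0.652 in all promoters, 0.903 in ribosomal and 0.794 in proteasome promoters. These are matches of letters, and no binding of a factor was measured.

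Exon-free stretches before the RefSeq starts are shown 5′ to 3′ on the strand of the gene, which is the minus strand for each gene shown. Capitals mark matches to the NRF1, ETS/GABP, YY1 or CCAAT motif on either strand. The first 4 were chosen because they hold an NRF1 or ETS/GABP match. The other 3 belong to genes that differed between the genotypes (see the values of relative fold enrichment and TSS coverage): *Atp5o* and *Ndufa9* hold no match in these stretches (their whole 300-base promoters hold 1 NRF1 and 1 YY1 match, respectively), and *Atp5g1* holds a run of CCAAT boxes. Genome positions are Cox6a1 chr5:115348982-115349129, Atp5h chr11:115419963-115420112, Ndufb4 chr16:37654454-37654603, Sdhd chr9:50603850-50603909, Atp5o chr16:91931688-91931837, Ndufa9 chr6:126849145-126849294 and Atp5g1 chr11:96075671-96075820.
Cox6a1: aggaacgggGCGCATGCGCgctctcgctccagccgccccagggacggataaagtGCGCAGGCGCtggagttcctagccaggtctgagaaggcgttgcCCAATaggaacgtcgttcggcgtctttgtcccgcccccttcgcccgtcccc
Atp5h: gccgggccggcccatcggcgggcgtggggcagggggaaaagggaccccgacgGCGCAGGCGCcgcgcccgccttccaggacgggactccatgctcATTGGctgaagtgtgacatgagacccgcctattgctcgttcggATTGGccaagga
Ndufb4: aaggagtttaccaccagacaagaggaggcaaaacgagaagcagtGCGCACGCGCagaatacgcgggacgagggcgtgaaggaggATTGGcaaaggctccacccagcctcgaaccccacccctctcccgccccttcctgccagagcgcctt
Sdhd: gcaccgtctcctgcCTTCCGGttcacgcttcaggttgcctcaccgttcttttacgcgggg
Atp5o: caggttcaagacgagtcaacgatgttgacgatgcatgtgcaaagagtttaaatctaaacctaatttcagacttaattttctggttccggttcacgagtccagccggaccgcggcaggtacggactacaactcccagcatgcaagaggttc
Ndufa9: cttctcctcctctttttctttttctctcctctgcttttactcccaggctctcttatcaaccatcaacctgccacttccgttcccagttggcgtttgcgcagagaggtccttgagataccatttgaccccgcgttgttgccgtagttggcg
Atp5g1: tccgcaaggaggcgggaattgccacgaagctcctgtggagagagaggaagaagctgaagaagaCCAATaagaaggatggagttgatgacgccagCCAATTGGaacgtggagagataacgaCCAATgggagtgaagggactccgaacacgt

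H4K12ac peaks were present at nearly all of these genes. A peak lay within 2 kb of the TSS in all 10 lists for 72 of the 91 records (79.1%), in some lists for 15, and in no list for 4. Of 20807 autosomal protein-coding genes 46.2% had a peak in all lists and 32.8% in none. Other highly used gene groups were similar to the oxidative phosphorylation genes, with 75.9% of 79 ribosomal protein genes and 69.8% of 43 proteasome genes in all lists. The median rank score of the members in control libraries was 87.4, against 74.1 for all autosomal protein-coding genes, 83.9 for ribosomal protein genes and 83.9 for proteasome genes. A control rank score above 90 was reached by 32 members (35.2%) and by 18.9% of all protein-coding genes.

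**Figure D1:**
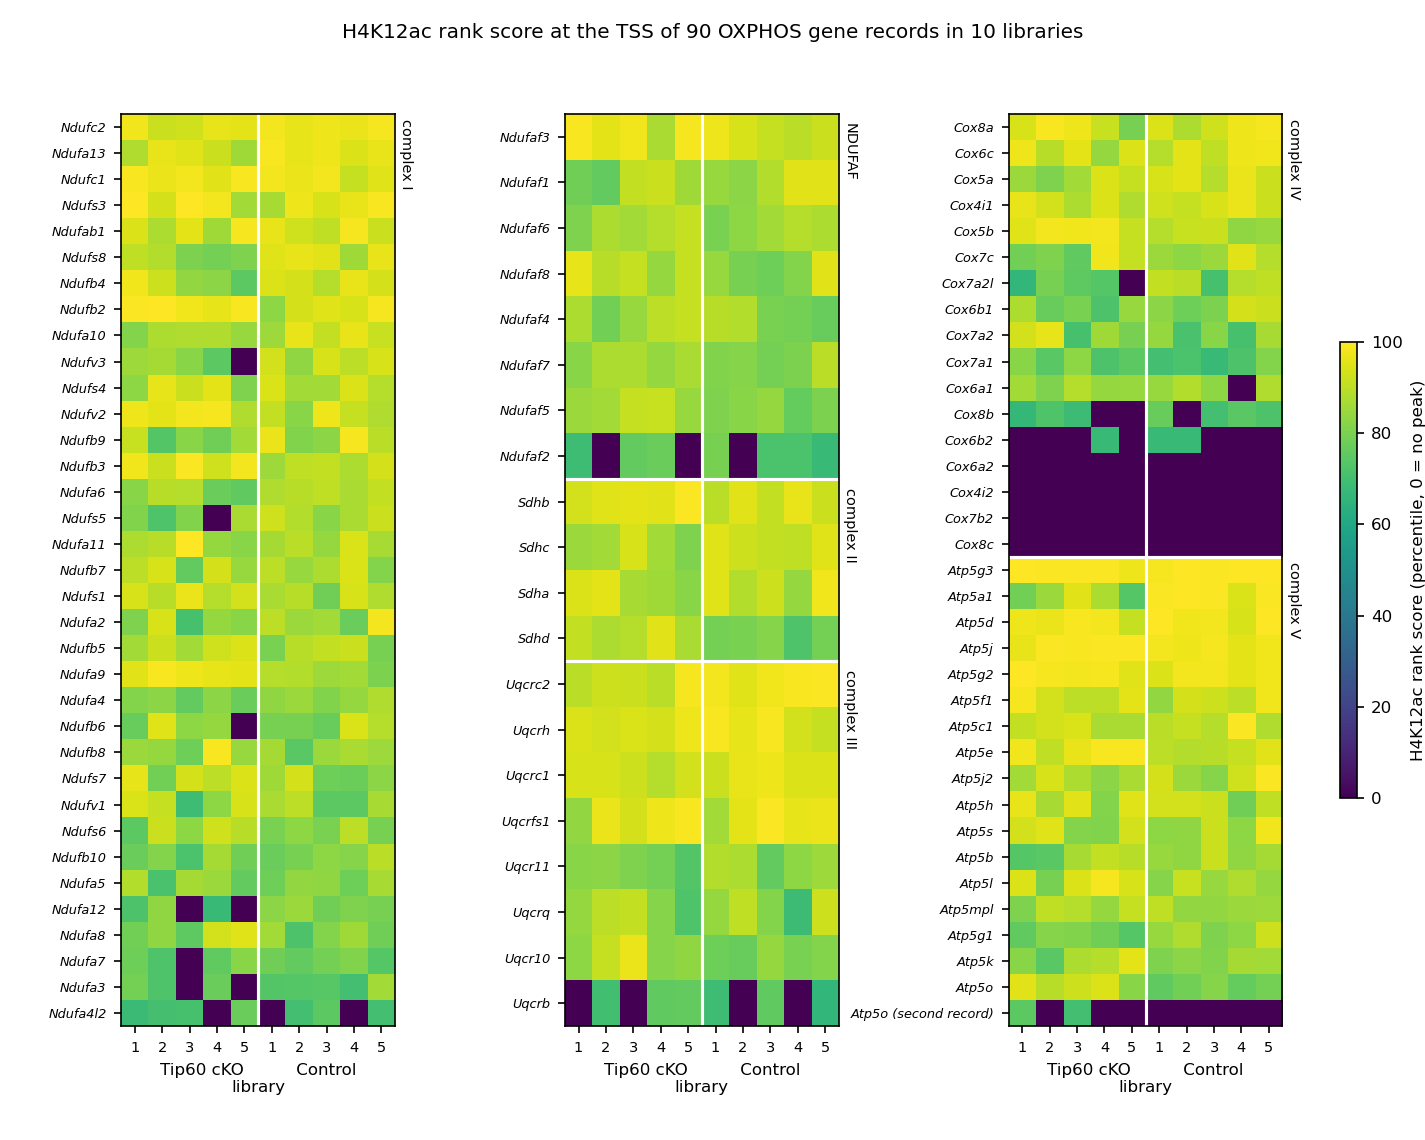
H4K12ac rank score (percentile among all annotated genes, 0 for no peak) of 90 of the 91 gene records, ordered by complex and by the control mean, in 5 *Tip60* cKO and 5 control libraries. The mean lies above 80 in both genotypes for 64 records, and the dark rows at the end of complex IV are the 4 genes without a peak in any list.

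By group, the median control rank score was highest in complex II (92.2), followed by complex V (89.9), complex III (89.6), complex I (87.5), the Ndufaf assembly factors (83.2) and complex IV (79.1). The gene with the highest score was in complex V, the ATP synthase. *Atp5g3*, which encodes the c subunit of the proton-driven ring, scored 99.6, 99.6, 99.4, 99.5 and 97.6 in *Tip60* cKO libraries 1 to 5 and 98.7, 99.97, 99.5, 99.8 and 99.8 in control libraries 1 to 5 (rank score). It lay close to the top of the genome in every library. Of the 18 complex V records 17 had a peak in all lists, and 9 had a control rank score above 90, among them *Atp5a1* (alpha subunit, 98.4 ± 2.31), *Atp5d* (delta subunit, 97.9 ± 2.27) and *Atp5j* (97.7 ± 1.04; control mean ± SD, n = 5). The second *Atp5o* record, whose 5′ end lies within the gene body of the first, had a peak in 2 *Tip60* cKO lists and no control list.

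In complex II, which has no subunit encoded by mitochondrial DNA, all 4 genes had a peak in all lists. Control rank scores were 92.9 ± 3.02 for *Sdhb* (iron-sulfur subunit), 92.8 ± 2.29 for *Sdhc* (membrane anchor), 91.6 ± 5.52 for *Sdha* (flavoprotein) and 78.5 ± 3.59 for *Sdhd* (membrane anchor; SD, n = 5). The first 3 did not differ beyond their spread, whereas *Sdhd* lay below them in every control library.

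Complex III had a peak in all lists for 7 of 8 genes. Control rank scores reached 97.98 ± 1.69 for *Uqcrc2*, a core protein of the complex, 95.9 ± 3.43 for *Uqcrh* and 94.98 ± 5.24 for *Uqcrfs1*, the Rieske iron-sulfur protein. *Uqcrb*, which encodes a small subunit, had a peak in only 3 *Tip60* cKO and 3 control lists. Its rank score where present was 66.2 to 75.9, in the lower range of the members.

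Complex I, the largest complex, had a peak in all lists for 28 of 36 records and in some lists for 8. The highest control rank scores were those of *Ndufc2* (97.6 ± 0.929), *Ndufa13* (96.9 ± 1.62) and *Ndufc1* (96.0 ± 2.90), which encode accessory subunits, followed by *Ndufs3* (94.7 ± 4.83), a core subunit (SD, n = 5). The records with a peak in only some lists included *Ndufa3*, *Ndufa7*, *Ndufa12*, *Ndufb6*, *Ndufs5* and *Ndufv3*. These 6 had a peak in all 5 control lists and in 3 or 4 *Tip60* cKO lists, and the missing lists were those of *Tip60* cKO library 3, 4 or 5. *Ndufa4l2*, a paralog of *Ndufa4* known from hypoxic cells, had a peak in 4 *Tip60* cKO and 3 control lists, with the control summits far upstream of its annotated TSS (median −1622 bp). Of the 8 complex I assembly factors 7 had a peak in all lists, led by *Ndufaf3* (control rank score 93.0 ± 3.09).

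Complex IV was the most divided group, with a peak in all lists for 9 of 17 genes and in no list for 4. A control rank score above 90 was reached by 4 of the 17 genes, *Cox8a* (94.2 ± 4.24), *Cox6c* (94.1 ± 4.20), *Cox5a* (93.6 ± 3.29) and *Cox4i1* (93.4 ± 2.27; SD, n = 5). These are used in most tissues, but not every widely used gene of the complex scored as high. The 4 genes without a peak in any list were *Cox4i2*, known from lung, *Cox6a2*, known from heart and skeletal muscle, and *Cox7b2* and *Cox8c*, known from testis. *Cox6b2*, known from testis, had a peak in 1 *Tip60* cKO and 2 control lists, and *Cox8b*, known from heart and brown fat, in 3 and 4 lists, with the control summits 1168 to 1352 bp downstream of the TSS. The muscle form *Cox7a1* was an exception, with a peak in all 10 lists and a control rank score of 72.6 ± 5.25 beside 79.1 ± 7.6 for the widely used *Cox7a2*, but its strongest control summits were scattered from −2175 to 1170 bp around the TSS. The 3 genes for the identical mature c subunit of ATP synthase all had peaks in all lists, in the order *Atp5g3* (99.6 ± 0.518), *Atp5g2* (97.0 ± 1.61) and *Atp5g1* (85.7 ± 4.65) by control rank score.

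**Figure D2:**
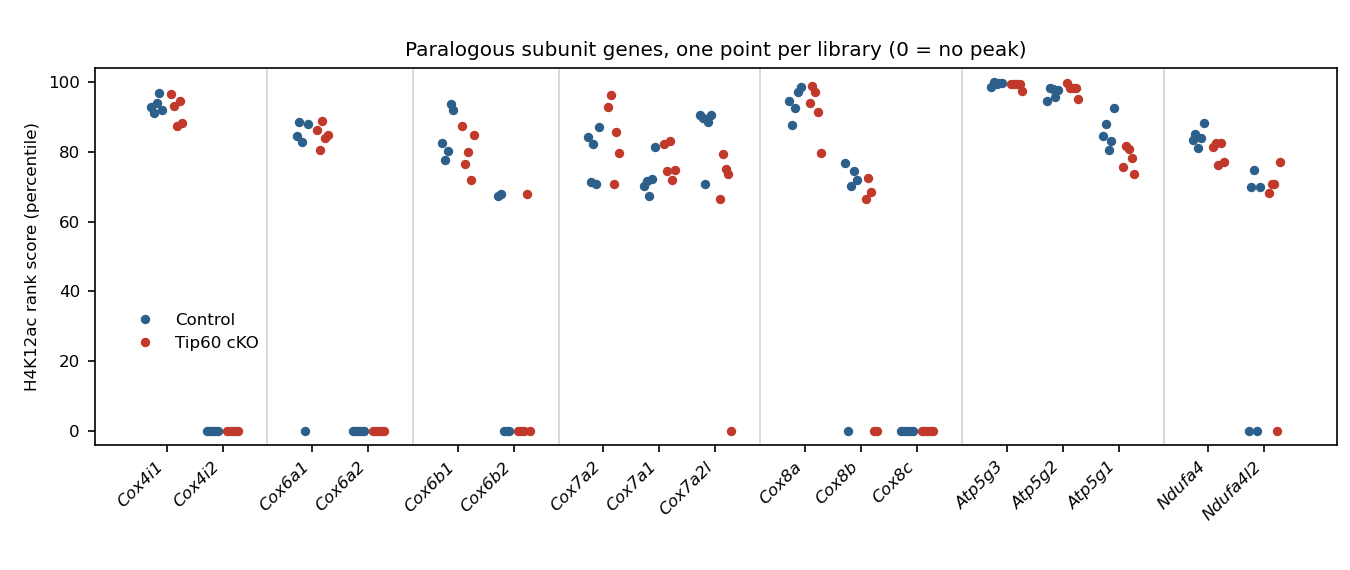
Rank score of paralogous subunit genes, with 1 point for each control (blue) and *Tip60* cKO (red) library, and 0 for a TSS without a peak. Within complex IV, *Cox4i1*, *Cox6a1*, *Cox6b1* and *Cox8a* lie above *Cox4i2*, *Cox6a2*, *Cox6b2* and *Cox8c*, which have no peak or a peak in 3 of 10 lists, except that control library 4 has no peak at *Cox6a1*.

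The paralogs also differed in their promoter sequences. CpG dinucleotides, whose density is known to go with broad promoter use, are in capitals in the exon-free stretches shown, which are on the minus strand (GRCm38.p6). Cox8a (chr19:7217617-7217766) has 10 CpG and *Cox8b* (chr7:140900447-140900596) has 1 in 150 bases. Cox6b1 (chr7:30626152-30626301) has 9 in 150 bases and *Cox6b2* (chr7:4753095-4753225) has 7 in 131 bases. *Cox7b2* (chr5:71548206-71548355) has 7 in 150 bases and no peak in any list, so a CpG count of this size also occurred without a peak. Over the whole promoter the ratio of observed to expected CpG was 0.842 for *Cox8a*, 0.115 for *Cox8b* (the lowest of the 69 promoters), 0.807 for *Cox6b1*, 0.432 for *Cox6b2* and 0.564 for *Cox7b2*.
Cox8a: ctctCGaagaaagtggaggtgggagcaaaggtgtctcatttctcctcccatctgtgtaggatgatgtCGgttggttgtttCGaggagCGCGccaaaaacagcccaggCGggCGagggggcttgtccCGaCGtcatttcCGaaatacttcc
Cox8b: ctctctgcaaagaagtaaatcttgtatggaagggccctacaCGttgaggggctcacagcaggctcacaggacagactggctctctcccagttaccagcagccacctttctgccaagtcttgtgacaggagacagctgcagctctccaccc
Cox6b1: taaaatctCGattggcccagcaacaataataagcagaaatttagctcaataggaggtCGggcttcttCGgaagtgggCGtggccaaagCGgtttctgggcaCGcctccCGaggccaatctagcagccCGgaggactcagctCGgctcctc
Cox6b2: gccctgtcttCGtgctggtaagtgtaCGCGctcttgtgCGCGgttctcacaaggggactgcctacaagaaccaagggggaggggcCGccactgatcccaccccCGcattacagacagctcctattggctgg
Cox7b2: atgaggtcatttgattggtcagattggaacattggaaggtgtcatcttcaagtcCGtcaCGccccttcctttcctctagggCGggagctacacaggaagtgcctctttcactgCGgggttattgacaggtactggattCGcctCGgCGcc

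The peaks had a common shape around the TSS. The strongest summit lay downstream of the TSS in 82.1 ± 3.32% of control and 78.5 ± 2.24% of *Tip60* cKO peaks (SD, n = 5), at a median of 235 ± 6.25 bp and 221 ± 12.1 bp. Of the 72 members with a peak in all lists 64 had their median control summit downstream, and for 55 it lay between 100 and 400 bp. Within 500 bp of the TSS lay 86.2 ± 1.67% of the control summits of members, against 73.1 ± 0.623% for all autosomal protein-coding genes, 82.3 ± 2.33% for ribosomal protein genes and 84.1 ± 2.64% for proteasome genes. Averaged over the 91 records, the share of genes covered by a peak in control libraries rose to 53.4 ± 6.39% at 325 bp upstream, dropped to 23.7 ± 6.25% at 25 bp upstream and reached 85.1 ± 3.53% at 275 bp downstream. All autosomal protein-coding genes had the same double maximum at lower values, with 29.7 ± 2.49% at 275 bp upstream and 46.3 ± 1.77% at 225 bp downstream, and the downstream maximum was 78 ± 4.62% for ribosomal protein genes and 69.8 ± 4.65% for proteasome genes. In a few members the annotated 5′ end lay away from the strongest peak, with the control median summit 2818 bp downstream in *Cox7a2l* (outside the window that the peak overlaps), 1441 bp in *Atp5g2* and 1013 bp in *Atp5f1*, and 975 bp upstream in *Uqcrh*.

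**Figure D3:**
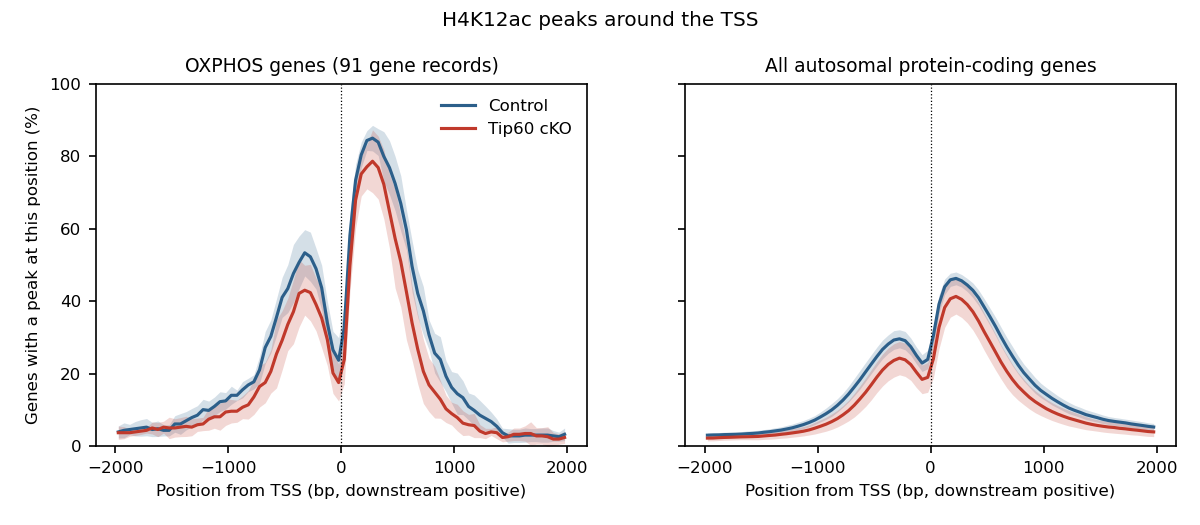
Percent of genes covered by an H4K12ac peak at each position from 2 kb upstream to 2 kb downstream of the TSS, for the 91 OXPHOS (oxidative phosphorylation) gene records and for all autosomal protein-coding genes. Lines are means and bands are SD over 5 libraries of control (blue) and *Tip60* cKO (red). The members peak at 85.1% of genes in control and 78.7% in *Tip60* cKO libraries at 275 bp downstream.

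Many of these genes share their promoter region with a neighbour. A protein-coding TSS on the opposite strand lay within 1 kb for 33 of 91 records (36.3%), against 11.2% of all autosomal protein-coding genes, 19.0% of ribosomal protein genes and 23.3% of proteasome genes. *Ndufs1* and *Eef1b2* start 8 bp apart, *Ndufa7* and *Rps28* 10 bp, and *Sdhd* and *Timm8b*, a mitochondrial import chaperone, 98 bp. *Atp5j* starts 700 bp from *Gabpa*, which encodes the DNA-binding subunit of GABP. H4K12ac in such a window cannot be assigned to a single gene of the pair. This also holds for *Atp5a1*, 157 bp from *Haus1*, and *Ndufa5*, 131 bp from *Asb15*, which like *Sdhd* were called between the genotypes. Members with and without such a neighbour had median control rank scores of 87.4 and 86.1, and median control TSS coverages of 23.7% and 22.3%.

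The comparison of genotypes asked whether H4K12ac at these TSSs differed between them relative to the rest of the genome. Rank score and relative fold enrichment are set within each library, so neither can show a fall shared by most genes. By immunostaining, the study reported a weaker H4K12ac signal in TIP60-deficient nuclei of CA1. By ChIP-Seq it reported that most promoter regions with a significant change had less H4K12ac in *Tip60* cKO. By rank score none of the 87 members with a peak in at least 2 lists was called lower (background 0.157% of 21672 genes) and none higher (background 0.0784%; limma, adjusted p below 0.05). At an unadjusted p below 0.05, 6 were lower (6.9%, background 6.68%) and 7 higher (8.05%, background 5.1%). The median difference of the members was −0.483 in rank score, against −0.691 for all genes tested, with 45 members lower and 42 higher. The order of these medians was not stable: it reversed with equal peak numbers (−0.884 and −0.47) and within lane 8 (−1.73 and −0.555). It held within lane 7 (0.327 and −0.346) and when any single library was left out, such as *Tip60* cKO library 5 (−0.0219 and −0.381). Averaged over the 91 records, the rank score of *Tip60* cKO libraries was 79.2 ± 2.77 and that of control libraries 80.8 ± 1.59, and a peak was present at 90.3 ± 3.42% and 92.3 ± 1.55% of them (SD, n = 5). The difference in mean rank score was −0.106 within lane 7, −4.0 within lane 8 and −0.493 without *Tip60* cKO library 5. Over all autosomal protein-coding genes, of which 32.8% had no peak in any list, these differences were −1.07, −2.24 and −0.675. Ribosomal protein genes had −0.316, −4.68 and −0.0894, and proteasome genes −2.59, −1.74 and −1.05.

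By complex, the median difference in rank score was −1.06 for complex I (20 of 36 tested members lower), 0.225 for complex II (2 of 4 lower), −1.0 for complex III (5 of 8), −1.96 for complex IV (9 of 13) and 1.14 for complex V (7 of 18). For the Ndufaf assembly factors it was 3.14 (2 of 8 lower). The medians differed in sign between complexes, and no test of that difference was made. The difference in mean rank score also changed sign between lanes 7 and 8 in complex III (−3.46 and 3.60), complex V (3.37 and −0.404) and the Ndufaf assembly factors (2.40 and −1.35). In each of these, 1 record had a peak in only some lists and counted as 0 in the others. *Uqcrb* had none in *Tip60* cKO libraries 1 and 3 and control libraries 2 and 4. *Ndufaf2* had none in *Tip60* cKO libraries 2 and 5 and control library 2. The second *Atp5o* record had one only in *Tip60* cKO libraries 1 and 3, and passed the filter through these alone. The part of these records in the differences was not tested. The groups did not overlap, with all *Tip60* cKO libraries higher, for 4 members (*Ndufa9*, *Sdhd*, *Atp5o* and *Ndufaf5*), which is 4.6% against a background of 1.93%. No member had all *Tip60* cKO libraries lower (background 1.62%).

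TSS coverage was lower in *Tip60* cKO libraries at most members and at most other genes. Over the members it averaged 19.7 ± 4.27% in *Tip60* cKO and 25.1 ± 2.99% in control libraries (SD, n = 5, 91 records), with 13.4% in *Tip60* cKO library 5 and 18.3 to 24.96% in the other *Tip60* cKO libraries against 20.4 to 28.1% in controls, so the groups overlapped. Coverage was lower in *Tip60* cKO for 79 of 87 members (90.8%) with a median difference of −4.65 percentage points, against 81.1% of all genes tested and −4.01 points. Among all autosomal protein-coding genes tested the share was 84.5% and the median −4.71 points. By complex the median was −4.66 for complex I, −3.88 for II, −8.52 for III, −4.46 for IV and −5.32 for V. The lists of *Tip60* cKO libraries also covered less of the genome, 43.8 ± 14 Mb against 56.4 ± 10.7 Mb, and the part of this in the coverage of the members was not tested. Of 13 cell type markers tested 2 were called lower (background 1.53%), *Syt1* of neurons (29.2 ± 7.07% against 51.4 ± 7.80%, limma adjusted p = 0.0315) and *Gfap* of astrocytes (4.60 ± 3.36% against 19.6 ± 4.87%, 0.0287). *P2ry12* of microglia had 0.32 ± 0.715% against 4.89 ± 4.24% (0.277). Values were higher for *Gja1* of astrocytes (2.82 ± 4.06% against 2.18 ± 4.87%, 0.9175) and *Slc32a1* of interneurons (2.67 ± 3.88% against 0%), and lower for the other tested markers. *Slc32a1* had a peak in 2 *Tip60* cKO lists and passed the filter through these alone, so its values are given as a description. The part of the markers in the coverage of the members was not tested. The mean difference of the members was −4.11 points within lane 7, −7.30 within lane 8 and −3.81 without *Tip60* cKO library 5. Over all autosomal protein-coding genes these differences were −2.67, −4.75 and −2.45 points. Of these genes 32.8% had no peak in any list and could not differ, against 4.4% of the members. Ribosomal protein genes had differences of −4.04, −8.24 and −3.85 points, and proteasome genes −3.02, −5.86 and −2.96 points.

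3 members were called lower in TSS coverage (3.45%, background 1.53%) and none higher (background 0.0369%; limma, adjusted p below 0.05). At an unadjusted p below 0.05, 23 members were lower (26.4%, background 22.3%) and 1, *Atp5l*, was higher (30.4% against 18.4%, adjusted p = 0.17, background 0.891%). The first called member was *Ndufa12* (chr10:94198720-94221443, plus strand), which encodes an accessory subunit of complex I. Its coverage was 5.65, 7.67, 0, 5.50 and 0% in *Tip60* cKO libraries 1 to 5 and 21.4, 19.7, 25.9, 21.9 and 29.99% in control libraries 1 to 5. All control libraries lay above all *Tip60* cKO libraries, and *Tip60* cKO libraries 3 and 5 had no peak. The difference was −20.0 ± 2.71 points (SE; limma adjusted p = 0.0127), and it stayed below 0.05 without any single library (adjusted p 0.0127 to 0.0429), but not with the replicate number as a block (0.0978), within lane 7 (0.131) or within lane 8 (0.421). The local background, which MACS takes from the input pooled by genotype, was at the genome-wide level at this peak in control lists and 1.08 to 1.75 times in the 3 *Tip60* cKO libraries with a peak, and its part in the difference was not tested.

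*Ndufa5* (chr6:24518666-24528013, minus strand), an accessory subunit of complex I, had a coverage of 19.6, 9.998, 10.2, 10.5 and 5.25% in *Tip60* cKO and 29.3, 25.7, 37.4, 25.1 and 43.4% in control libraries. The groups did not overlap, and the difference was −21.1 ± 3.98 points (SE; limma adjusted p = 0.0284). Its rank score, 81.4 ± 7.44 and 81.9 ± 3.89 (SD, n = 5), was close in the genotypes: the strongest peak, about 685 bp downstream of the TSS, was shorter in *Tip60* cKO (445 ± 209 bp against 859 ± 362 bp) but of similar rank. Local background at this peak was 1.14 ± 0.00474 and 1.09 ± 0.0708 times the genome-wide level in *Tip60* cKO and control lists. *Atp5g1* (chr11:96068852-96075670, minus strand) had a coverage of 35.9, 24.7, 27.4, 23.3 and 11.7% in *Tip60* cKO and 49.99, 41.3, 42.8, 36.8 and 52.0% in control libraries, again without overlap, and a difference of −19.95 ± 4.40 points (SE; limma adjusted p = 0.0498). Its local background was 1.38 ± 0.0389 and 1.06 ± 0.0432, and its part was not tested. Both calls were also lost with the same number of peaks taken from each list, the number in the shortest one (adjusted p = 0.111 for *Ndufa5* and 0.0554 for *Atp5g1*), and that of *Atp5g1* with a window of 1 kb (0.058) and with a trend and robust prior (0.0507; limma). With equal peak numbers 4 members were called lower, *Ndufa12* among them, with 3.79% of all genes called in either direction, and the median difference of the members was −4.46 points. Both calls were lost when *Tip60* cKO library 2, 3, 4 or 5 or control library 1, 2, 3 or 5 was left out, with adjusted p-values up to 0.0747 for *Ndufa5* and 0.116 for *Atp5g1*. *Ndufs5* and *Ndufv2* of complex I also had groups without overlap and an adjusted p of 0.0584 each, so 5 members (5.75%, background 5.23%) had all *Tip60* cKO libraries lower in coverage.

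**Figure D4:**
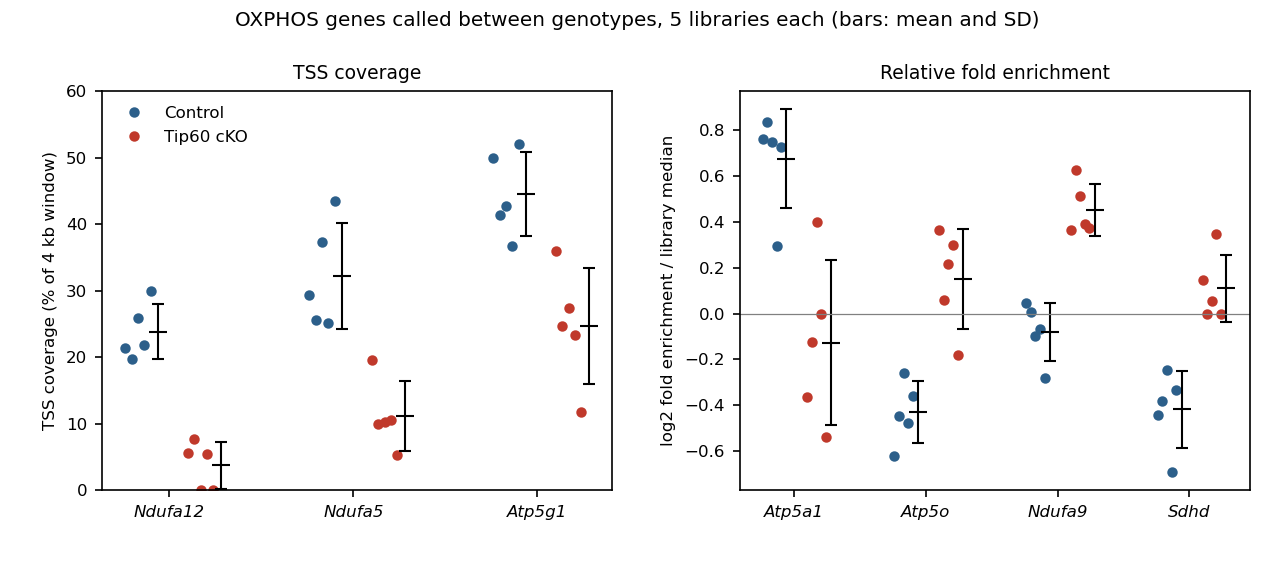
Left, TSS coverage (percent of the 4 kb window within peaks) of the 3 members called lower in *Tip60* cKO. Right, log2 relative fold enrichment of the 4 called members. Points are libraries of control (blue) and *Tip60* cKO (red), and bars are mean and SD (n = 5). The groups overlap only for *Atp5a1*, where *Tip60* cKO library 3 at 0.397 lies above control library 4 at 0.295.

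Relative fold enrichment could be compared for 72 members. Their median difference was 0.0620 on the log2 scale, against 0.0244 for all 13004 genes, with 32 members lower and 40 higher. The order of these medians was not stable either: within lane 8 they were −0.0306 and 0.0246, without *Tip60* cKO library 2 0.0161 and 0.0207, and without *Tip60* cKO library 4 0.0122 and 0.0174. Ribosomal protein genes had a median of 0.0761 (37 of 60 higher) and proteasome genes one of 0.0511 (18 of 30 higher). *Tip60* cKO libraries were called lower for 1 member (1.39%, background 0.792%) and higher for 3 (4.17%, background 2.78%; limma, adjusted p below 0.05). At an unadjusted p below 0.05, 5 were lower (6.94%, background 6.2%) and 14 higher (19.4%, background 11.7%). The groups did not overlap for 4 members that were higher in *Tip60* cKO (5.56%, background 3.16%), the same 4 as by rank score, and for none that was lower (background 1.19%).

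*Atp5a1*, the alpha subunit of ATP synthase, was the called member that fell. Its relative fold enrichment was −0.365, −0.125, 0.397, −0.00407 and −0.539 in *Tip60* cKO libraries 1 to 5 and 0.763, 0.837, 0.749, 0.295 and 0.728 in control libraries 1 to 5 (log2). 4 of 5 control libraries lay above all *Tip60* cKO libraries. The ratio was 0.574 (log2 difference −0.80 ± 0.16 SE, limma adjusted p = 0.00279), with adjusted p-values of 0.000883 to 0.0115 when single libraries were left out. The pileup at its summit, the height of stacked fragments, was 32.6 ± 8.73 in *Tip60* cKO and 46.6 ± 10.8 in control libraries (SD, n = 5). The local background of *Tip60* cKO lists was 1.70 ± 0.333 times the genome-wide level, and that of control lists 1.03 ± 0.00912 times.

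The 3 called members that rose were *Atp5o*, *Ndufa9* and *Sdhd*. *Atp5o* (chr16:91925214-91931687, minus strand), the stalk subunit OSCP of ATP synthase, had values of 0.363, 0.0589, 0.214, 0.301 and −0.181 in *Tip60* cKO and −0.619, −0.445, −0.258, −0.476 and −0.358 in control libraries. Every *Tip60* cKO library lay above every control library, with a ratio of 1.497 (log2 difference 0.58 ± 0.14 SE, limma adjusted p = 0.0134, at most 0.0449 without any single library). Its local background was at the genome-wide level in all *Tip60* cKO lists and 1.45 ± 0.412 times that level in control lists.

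*Ndufa9* (chr6:126821721-126849136, minus strand), an accessory subunit of complex I, had values of 0.363, 0.624, 0.513, 0.391 and 0.372 in *Tip60* cKO and 0.0464, 0.00485, −0.0969, −0.0679 and −0.283 in control libraries. The ratio was 1.45 (log2 difference 0.53 ± 0.13 SE, limma adjusted p = 0.0179). *Sdhd* (chr9:50596357-50603812, minus strand), a membrane anchor of complex II, had values of 0.147, 0, 0.0566, 0.347 and 0 in *Tip60* cKO and −0.442, −0.382, −0.244, −0.691 and −0.333 in control libraries, with a ratio of 1.44 (log2 difference 0.53 ± 0.14 SE, limma adjusted p = 0.0218). Neither gene showed overlap of the groups. The local background of control lists was 1.29 ± 0.271 times the genome-wide level for *Ndufa9* and 1.13 ± 0.123 times for *Sdhd*, whereas *Tip60* cKO lists were at or within 1.012 times that level. The call of *Ndufa9* was lost without *Tip60* cKO library 2 or control library 5 (adjusted p up to 0.0629), and that of *Sdhd* without *Tip60* cKO library 1 or 4 or control library 4 (up to 0.0776).

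For all 4 members the local background was higher in the genotype with the lower fold enrichment. As the 5 lists of a genotype share a pooled input, these background values are not independent between libraries. The p-values of the 4 calls therefore leave out any difference between the inputs of the genotypes. With pileup relative to the median of the library in place of fold enrichment, the log2 differences were −0.21 for *Atp5a1* (adjusted p = 0.63), 0.041 for *Atp5o* (0.945), 0.29 for *Ndufa9* (0.392) and 0.36 for *Sdhd* (0.284; limma), and none of the 4 was called. Across the 72 members the difference in relative fold enrichment and the log2 ratio of local background between genotypes had a Pearson correlation of −0.69 and a Spearman correlation of −0.628. Fold enrichment is pileup divided by this background, so the quantities share a term, and the genes share their libraries. For relative pileup the Pearson correlation was −0.00315. Of the 72 members 20 had a background above 1.1 in control lists only, with a median log2 difference in fold enrichment of 0.277, and 11 in *Tip60* cKO lists only, with a median of −0.254. The 32 members at or below 1.1 in both genotypes had a median of 0.00301, with 16 lower. Of the strongest peaks at members 67.2 ± 6.25% in *Tip60* cKO lists and 40.04 ± 4.23% in control lists were at the genome-wide background (SD, n = 5), against 73.0 ± 3.17% and 48.7 ± 2.65% for all autosomal protein-coding genes.

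**Figure D5:**
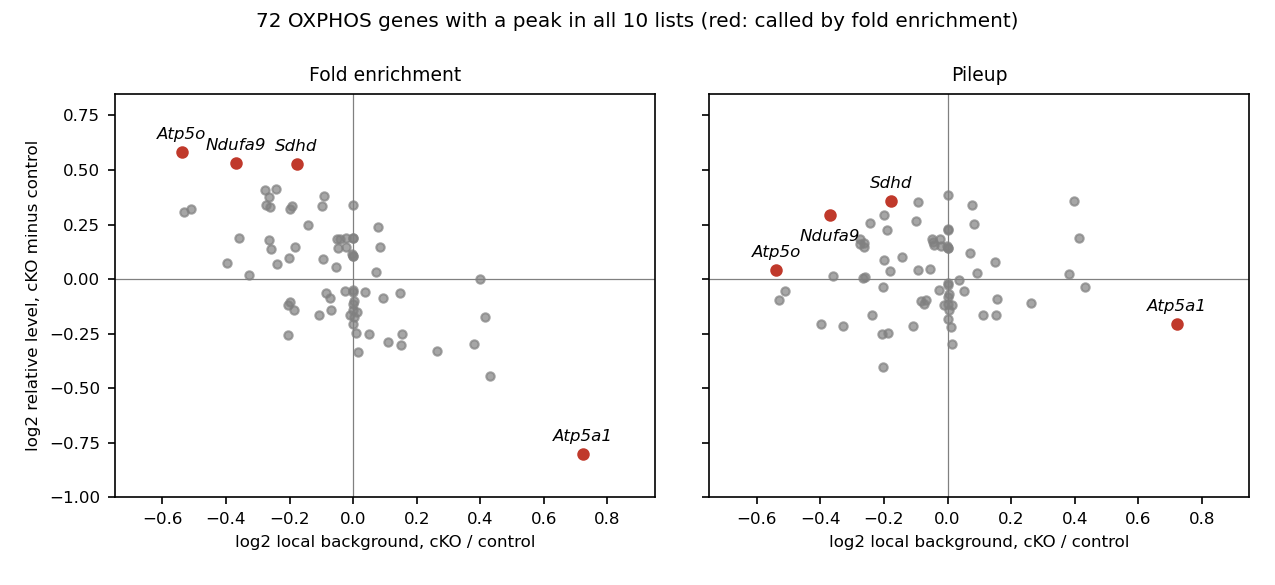
Difference in log2 relative level between *Tip60* cKO and control (vertical) against the log2 ratio of the local background (horizontal) for 72 members, with fold enrichment on the left and pileup on the right. Red points are the 4 members called by fold enrichment. The fold enrichment differences fall with the background ratio (r = −0.69) and the pileup differences do not (r = −0.00315).

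The other members among the 5 largest differences each way in relative fold enrichment did not pass the adjusted threshold. Lower values in *Tip60* cKO were found at *Ndufs8*, a core subunit of complex I (log2 difference −0.45, adjusted p = 0.0735), *Uqcrc2* (−0.33, 0.192), *Ndufb9* (−0.33, 0.296) and *Ndufa13* (−0.30, 0.248), and higher values at *Ndufb2* (0.41, 0.119) and *Cox5b* (0.41, 0.0967; limma). The largest differences of complex III and of the Ndufaf assembly factors were those of *Uqcr10* (0.38, adjusted p = 0.155) and *Ndufaf5* (0.33, 0.167; limma). The rank scores of *Ndufs8* were 90.4, 88.3, 80.5, 79.1 and 80.8 in *Tip60* cKO and 94.98, 96.8, 95.6, 85.7 and 96.7 in control libraries, and those of *Cox5b*, a nuclear subunit of complex IV, were 95.2, 98.2, 97.8, 98.3 and 91.3 and then 88.8, 91.8, 92.2, 83.3 and 84.4. The groups overlapped through control library 4 at *Ndufs8* and *Tip60* cKO library 5 at *Cox5b*.

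Genes that act beside the subunits were read in the same way. Of 39 assembly factors outside the symbol rule 36 had a peak in all lists, and 1 was called lower by rank score (background 0.157%), 2 lower by TSS coverage (background 1.53%) and 1 of 36 higher by relative fold enrichment (background 2.78%). *Pet100*, an assembly factor of complex IV, was the one lower by rank score, with a peak in all 5 control lists (73.7 ± 6.95) and in no *Tip60* cKO list. It passed the filter of at least 2 lists only through the control lists, so its call is given as a description. Of 19 regulators of the pathway, among them *Nrf1*, *Gabpa*, *Yy1* and *Tfam*, 15 had a peak in all lists and 1, *Nrf1*, was called, lower in TSS coverage (33.6 ± 2.27% against 52.7 ± 8.13%, limma adjusted p = 0.0284), where 18 regulators were tested and 1.53% of all genes were called lower and 81.1% had a lower value. *Ppargc1a*, the coactivator known as a master regulator of mitochondrial biogenesis, had a peak at its annotated 5′ end in only 1 of 10 lists.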

How the data were processed

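H4K12ac ChIP-Seq libraries were mapped by the authors to mm10 with STAR, PCR duplicates were removed with samtools, and peaks were called per library with MACS 2.1.0.20140616 (q below 0.1) against 1 input pooled for each genotype. Each of the 10 deposited lists holds per peak the pileup, a coverage signal at the summit, the fold enrichment, a ratio to the local background, and −log10 p-values and q-values. The 2 input samples had no peak list. The precision is the spread between 5 libraries, and where no peak was listed the mark may still lie under the caller's threshold. The local background was recovered here from pileup, fold enrichment and tag number.

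TSSs were the annotated 5′ ends of GENCODE M21 genes, mitochondrial genes left out. Genotypes were compared with limma 3.58.1 in R 4.3.3 (lmFit, eBayes) over all 21672 genes with a peak in at least 2 lists, or 13004 with a peak in all, with Benjamini-Hochberg adjustment over all of them. Of the 91 members 87 passed the first filter and 72 the second. Other values were computed with Python 3.11.15. The limma step was tested on simulated data. The members, the other gene lists and the measures were chosen with earlier results of these data known. Named were called members, the highest and most different members of each complex, the 5 largest differences each way, members without a peak in all lists, the Sdh genes and paralogs. Genes called in coverage with groups that do not overlap, neighbours and *Pet100* were named after their values were seen. Alternatives were peaks with q below 0.01, equal peak numbers (64245), windows of 1 kb, all transcripts, pileup, other filters and priors, lane, the replicate number as a block and each library left out. Of the members, 1 entered all counts and is not reported here by itself.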

Additional observations from a re-analysis of the deposited data

Results flagged for a closer look

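In 84 groups of 5 libraries (gene groups by measure, and called members) the highest or lowest library was compared with the others, and 9 stood apart, where chance alone flags about 1 in 20. Control library 5 had a mean log2 relative fold enrichment of the members of 0.164, against 0.0284 to 0.0554 in the other control libraries. Control library 2 had a peak at 87.5% of the Ndufaf assembly factors, against all of them in the others, and a mean rank score of 73.9 for them, against 82.3 to 85.6, since *Ndufaf2* had no peak there. *Tip60* cKO library 5, which had the shortest list, had a mean rank score of 87.4 in complex II, against 90.7 to 91.4, and in complex IV a peak at 58.8% of the genes, against 70.6%, and a mean rank score of 50.6, against 59.2 to 60.5. In complex V the mean log2 relative pileup was 0.318 in *Tip60* cKO library 3, against 0.197 to 0.222, and 0.33 in control library 5, against 0.167 to 0.209. At *Atp5a1* control library 4 had a relative fold enrichment of 0.295, against 0.728 to 0.837, and the lower value in *Tip60* cKO was called with and without it.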

How the results depend on the processing

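The cause of the changes given here was not tested, and percentages after counts of calls are the share of all genes called in either direction in the same fit. By rank score, where no member was called (0.235%), 1 was called lower with a trend and robust prior (0.397%) and 1 within lane 8 (4.97%), and between 0 and 1 higher when single libraries were left out (1 without *Tip60* cKO library 5, 0.385%). The 3 members called lower in TSS coverage (1.56%) became 5 with lane as a covariate (3.01%), 1 with no filter (0.0577%, where limma warns that most variances are 0), 0 within lane 7 (0.0145%) and 0 within lane 8 (0%), where fewer samples were fitted, and 1 to 6 without single libraries (0.187 to 6.65%, 6 without *Tip60* cKO library 1, 1 without *Tip60* cKO library 2, 3, 4 or 5 or control library 1, 2, 3 or 5). By relative fold enrichment 1 lower and 3 higher calls (3.57%) became 0 and 0 with pileup (0.131%), 0 and 0 within lane 8 (0.202%), 0 higher within lane 7 (1.0%), and 1 to 2 lower (2 without control library 4) and 2 to 3 higher without single libraries (1.77 to 3.11%). The median log2 difference of 0.0620 was −0.0306 within lane 8 and 0.0122 to 0.0842 without single libraries, against 0.0246 and −0.00397 to 0.0244 for all genes. Members whose groups do not overlap in rank score, 0 lower and 4 higher, were 1 lower with all transcripts (background 1.62%), 1 lower and 2 higher with pileup (0.946 and 0.849%), 7 and 12 within lane 7 (background 8.08 and 8.35%), 29 and 19 within lane 8 (21.9 and 18.3%), and 0 to 5 lower (5 without control library 3) and 4 to 7 higher (7 without control library 5) without single libraries (backgrounds 2.27 to 2.64% and 2.45 to 2.86%). No direction of a called member reversed. Whether replicate numbers pair the libraries was not settled. Same-numbered libraries, which also share a lane, had correlations of −0.0375 to 0.0552, and 3 of 5 were highest with their own number. With the number as a replicate block the calls in TSS coverage fell from 3 to 0, with none among all genes. Those by rank score and relative fold enrichment stayed at 0 and 4. Of the 15 members with a peak in some lists, 10 had none in *Tip60* cKO library 5 and 2 to 5 had none in each of the other libraries.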
